A study of Mus musculus with 6 samples.

Results

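The 10 genes described here encode signals that set the tone of blood vessels, together with the enzymes and receptors that make and read them: Edn1, Ednra, Ednrb, Ece1, Nos3, Ptgs1, Ptgs2, Ptgis, Adm and Calcrl. They were taken by symbol from a list, and all 10 were found among the 24421 genes of the count table. Gene expression was measured by RNA-seq in 6 libraries, 1 for each condition. Cont BECs and cKO BECs were blood endothelial cells (BECs) of E15.5 embryo skin, kept as the cells without CD45, F4/80 and Lyve1 and shown in the study's scheme as positive for CD31, with the RNA of 2 to 3 embryos pooled. Both carried the floxed Dot1l allele (Dot1l 2f/2f) and differed in Tie2-Cre, a recombinase under the promoter of an endothelial receptor that is also active in blood lineages. The controls that the labels call wild type were therefore Cre-negative floxed embryos. The other 4 libraries were made from cultured cells, with 2 to 3 flasks pooled: BECs of the embryonic yolk sac line CRL-2581, and lymphatic endothelial cells (LECs) of embryonic dermis, C57-6064L. In OE-BECs and OE-LECs a lentivirus brought dCas9-VP64, an activator without cutting activity, to the promoter of Dot1l, whereas Cont BECs and Cont LECs received empty lentivirus, and transduced cells were sorted by EGFP. With 1 library per condition no difference below has a replicate check, and each describes 2 libraries.

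Endothelin-1, the peptide cut from the product of Edn1 by the converting enzyme of Ece1, constricts vessels through the receptor Ednra on smooth muscle, while Ednrb on endothelium clears the peptide and triggers the release of vasodilators. The vasodilators of endothelium include nitric oxide, made by the endothelial synthase Nos3, and prostacyclin, made from arachidonic acid by a cyclooxygenase (Ptgs1 or the inducible Ptgs2) and then Ptgis. Adrenomedullin, encoded by Adm, is a dilating peptide whose receptor is Calcrl bound to a RAMP protein, and this pair is needed for the growth of lymphatic vessels.

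Counts summed to between 8863349 reads (Cont BECs, skin) and 31032461 reads (OE-LECs). Levels are given as CPM, the reads of a gene per 1000000 reads of its library, and 3 reads, the floor used here, are 0.338 CPM in the shallowest and 0.0967 CPM in the deepest library. Dot1l itself had 85.97 CPM in Cont BECs and 85.16 CPM in cKO BECs of skin, 111.5 and 302 CPM in cultured Cont BECs and OE-BECs, and 95.34 and 216.5 CPM in Cont LECs and OE-LECs. Reads over the whole gene did not separate the skin libraries and do not show whether the floxed part was removed, so the cKO BECs are called the library labelled cKO throughout. The study also measured Dot1l by RT-qPCR, which was not analysed here. All 12 blood endothelial marker genes had reads in every library. Prox1, which defines lymphatic endothelium, had 0 reads in all 4 cultured libraries, those labelled LEC included, where Pdpn also had 0 reads. Lyve1 had 52184 and 60898 reads in Cont LECs and OE-LECs, and also 10680 and 14786 in cultured Cont BECs and OE-BECs. The skin libraries, sorted as Lyve1-negative BECs, had 1304 and 883 reads of Prox1 and 9105 and 19959 of Lyve1. The skin libraries also held reads of macrophage and mast cell genes, such as Mrc1 (22493 and 43350 reads) and Cpa3 (10969 and 19211 reads).

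Ratios of the changed library over its control were computed from normalized counts (median of ratios within the pair), with exact 95% intervals on the reads that cover counting error only. The call rule asked that the larger of both normalized counts be at least 5 (cKO) or 3 (OE) and exceed 3 times the smaller. In the library labelled cKO, 2 of 10 members were called higher (Edn1 and Adm) against 5.17% of the 15993 genes that reached the minimum, and 1 was called lower (Ptgs2) against 2.41%. In OE-BECs, 2 of 10 were called higher (Edn1 and Ednra, the latter on 3 reads) against 8.02% of 14792 genes, and 1 was called lower (Ednrb) against 5.27%. In OE-LECs, 9 members reached the minimum, 0 were called higher against 2.77% of 13883 genes, and 1 was called lower (Ednrb) against 2.09%. These shares are small counts from 10 genes. The median log2 ratio of the members, with 1 added to each normalized count, was -0.19, -0.09 and 0.02 in these comparisons, beside 0.00, 0.01 and 0.00 over all genes that reached the minimum.

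**Figure D1:**
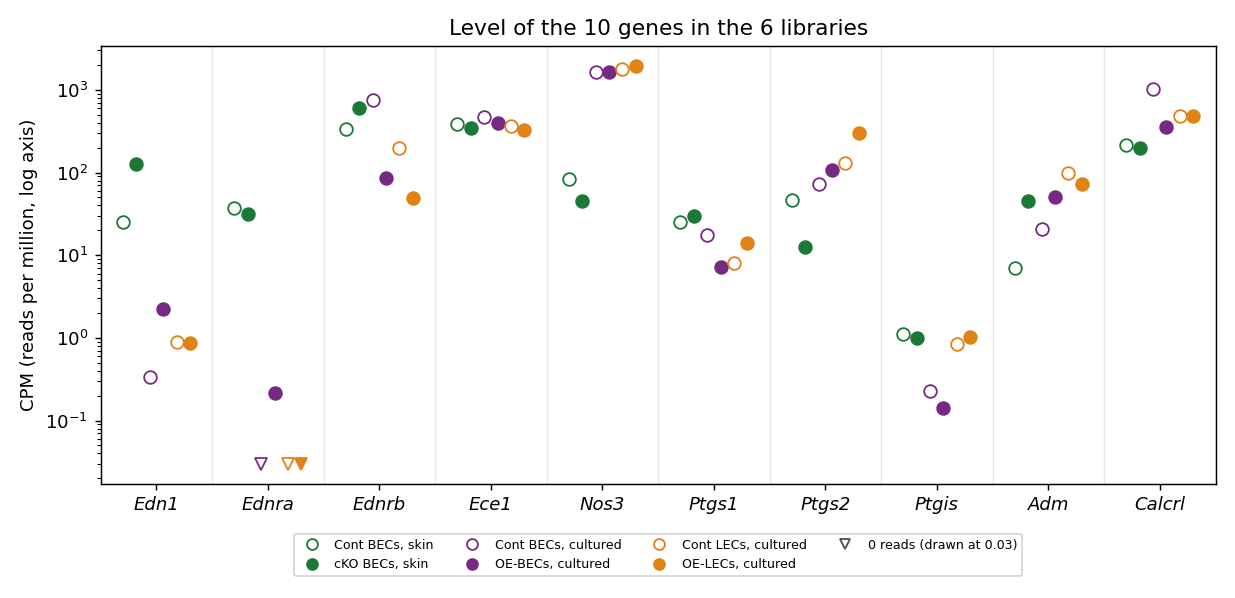
Each point is the CPM (log axis) of 1 gene in 1 library, open for controls and filled for the cKO or OE library. Nos3 was at 1635 CPM or more in all 4 cultured libraries, Edn1 and Ednra were above 25 CPM in skin and at most 2.23 CPM in culture, and triangles drawn at 0.03 mark 0 reads.

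The sequences that lie just before the start of the 4 members called on more than 3 reads in both libraries are shown because these genes carry the differences described below. Each is the stretch of 250 bases upstream of the RefSeq start site on GRCm38.p6, the assembly that mm10 represents, written 5′ to 3′ on the strand of the gene. Capitals mark the letters ACGTG or GCGTG on either strand, the core of the element read by hypoxia-inducible factors.
Edn1, chr13:42301226-42301475, plus strand: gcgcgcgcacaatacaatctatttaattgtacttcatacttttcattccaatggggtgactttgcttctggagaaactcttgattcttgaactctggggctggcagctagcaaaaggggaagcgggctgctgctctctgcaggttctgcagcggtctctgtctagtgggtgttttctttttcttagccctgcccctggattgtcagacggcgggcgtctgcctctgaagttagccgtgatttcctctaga
Adm, chr7:110627407-110627656, plus strand: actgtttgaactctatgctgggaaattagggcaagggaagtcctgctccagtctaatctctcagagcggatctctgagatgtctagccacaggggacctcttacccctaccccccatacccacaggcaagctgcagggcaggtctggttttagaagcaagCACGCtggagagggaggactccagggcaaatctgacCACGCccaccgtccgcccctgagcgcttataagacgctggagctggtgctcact
Ptgs2, chr1:150099781-150100030, plus strand: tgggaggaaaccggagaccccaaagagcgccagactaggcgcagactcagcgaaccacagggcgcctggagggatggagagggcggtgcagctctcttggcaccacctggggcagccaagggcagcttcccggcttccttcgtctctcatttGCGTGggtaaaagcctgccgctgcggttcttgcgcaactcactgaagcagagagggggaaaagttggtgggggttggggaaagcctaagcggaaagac
Ednrb, chr14:103843702-103843951, minus strand: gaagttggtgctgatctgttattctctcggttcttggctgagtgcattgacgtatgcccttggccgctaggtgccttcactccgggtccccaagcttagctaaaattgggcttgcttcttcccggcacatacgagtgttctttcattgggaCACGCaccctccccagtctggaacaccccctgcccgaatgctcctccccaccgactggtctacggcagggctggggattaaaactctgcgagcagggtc
The window of Adm held 2 matches, beginning 90 and 54 bases before the start, both on the opposite strand. Those of Ptgs2 and Ednrb held 1 each, at 98 and 99 bases, and that of Edn1 held none. The window of Ednrb lies inside the GENCODE span of the gene (103814625 to 103844402), so it is not upstream of the whole gene. Such a match was found in 38.6% of all 32817 promoter windows, so it is common. Of the 8 members that had a window, 4 had a match. This count is by gene and not by window, and Ece1 had several windows, so it is not on the same footing as the share. The AP-1 letters TGACTCA, read by Fos and Jun proteins, stood in 4.46% of all windows and in those of 0 of these 8 members. With so rare a match, 0 among so few genes carries little information. The matches are letters only and do not show binding.

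All 10 members are protein-coding genes, and positions are those of the whole gene on mm10. Edn1, on chromosome 13 from 42301476 to 42307990, had 25.3 CPM in Cont BECs of skin and 127 CPM in the library labelled cKO. The latter was 4.84-fold higher in normalized counts (224 and 1410 reads, log2 ratio 2.28, interval 2.07 to 2.49). By CPM per kilobase of exons, Edn1 was the fifth of the 10 members in Cont BECs, with 11.8, and the third in the library labelled cKO, with 59.5. In bulk RNA, fewer cells of a type and less RNA per cell cannot be told apart, for this gene and all others below. In culture Edn1 was close to absent. It had 6 reads in Cont BECs (0.339 CPM) and 31 in OE-BECs (2.23 CPM), which the rule called higher with a wide interval on the log2 ratio of 1.47 to 4.30. Cont LECs and OE-LECs had 0.881 and 0.870 CPM (23 and 27 reads), with an interval of -0.86 to 0.87. Of the other endothelins, Edn3 had 5.42 and 3.25 CPM in the skin libraries and 0 reads in culture, and Edn2 had at most 3 reads in any library.

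Adm, on chromosome 7 from 110627661 to 110629820, had 7.11 CPM in Cont BECs of skin (63 reads) and 45.0 CPM in the library labelled cKO (499 reads). This 6.10-fold difference was the largest among the members in skin (log2 ratio 2.61, interval 2.23 to 3.01). In culture Adm had 21.0 CPM in Cont BECs and 51.2 CPM in OE-BECs, higher in normalized counts but under the 3-fold of the rule (log2 ratio 1.32, interval 1.14 to 1.51). In LECs the order was the opposite, with 97.9 CPM in the control and 72.3 CPM in OE-LECs (log2 ratio -0.42, interval -0.50 to -0.34). Of all 6 libraries Cont LECs held the most Adm, and Cont BECs of skin the least.

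Hypoxia response genes and markers of other cell types differed between the same skin libraries as Edn1 and Adm. Of 12 hypoxia response genes, 10 had a ratio above 0 in the library labelled cKO, and their summed level was 974 CPM in Cont BECs and 1587 CPM there. Of 8 keratinocyte genes 6 were higher there (228 and 393 CPM in sum), and all 9 macrophage genes were (3749 and 6022 CPM). Of 8 mast cell genes 7 were higher (2861 and 4059 CPM), while 10 of 12 blood endothelial genes were lower (6944 and 4518 CPM). No gene of these 5 lists was at 0 reads in either skin library. Their part in the ratios of the members was not tested. When ratios were scaled to the summed reads of the 12 blood endothelial genes, a choice made after seeing the data, every log2 ratio in this pair rose by 0.68. On that scale Edn1 (2.95) and Adm (3.28) were higher still. In OE-BECs 8 of the 11 hypoxia response genes that reached the minimum had a ratio below 0, and 4 of them on the blood endothelial scale.

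**Figure D2:**
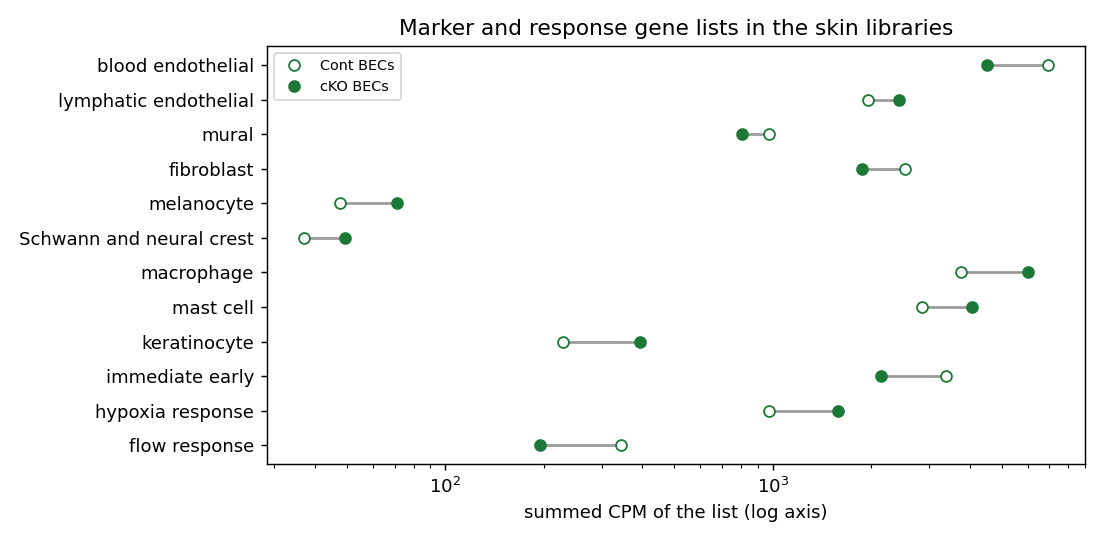
Summed CPM (log axis) of 12 marker and response gene lists in the skin libraries, open for Cont BECs and filled for the library labelled cKO. The blood endothelial sum was lower in the library labelled cKO (6944 and 4518 CPM), while the macrophage, mast cell, keratinocyte and hypoxia response sums were higher.

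Ece1, the enzyme that releases active endothelin, was the most even of the members. On chromosome 4 from 137862237 to 137965229, it had between 323 CPM (OE-LECs) and 475 CPM (Cont BECs, cultured) in all 6 libraries. Its log2 ratios were -0.19 in skin (interval -0.26 to -0.12), -0.23 in OE-BECs (interval -0.28 to -0.18) and -0.16 in OE-LECs (interval -0.20 to -0.12). Scaled to the blood endothelial genes, these became 0.48, 0.31 and -0.06, so the sign in skin and in OE-BECs turned on that scale. It turned on no other scale tried. The 12 scaling genes were themselves lower in OE-BECs, with 10 of 12 ratios below 0 (8524 and 5723 CPM in sum). Its relative Ece2 had at most 33.9 CPM and was not called in any comparison.

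Ednrb, the endothelin receptor of endothelium and of the melanocyte and enteric nerve precursors, differed in all 3 comparisons. On chromosome 14 from 103814625 to 103844402, it had 341 CPM in Cont BECs of skin and 599 CPM in the library labelled cKO, 1.69-fold higher in normalized counts and under the 3-fold of the rule (log2 ratio 0.76, interval 0.70 to 0.82). In both OE libraries it was lower than in the control. In cultured BECs it had 759 CPM in the control and 87.1 CPM in OE-BECs, 8.49-fold lower (13428 and 1213 reads, log2 ratio -3.09, interval -3.17 to -3.00). In LECs it had 199.7 CPM in the control and 49.8 CPM in OE-LECs, 3.96-fold lower (5216 and 1544 reads, log2 ratio -1.99, interval -2.07 to -1.90). The log2 ratio in OE-BECs was lower than that in OE-LECs by 1.10 (interval of the difference -1.18 to -1.02). Scaled to the blood endothelial genes, the log2 ratios of Ednrb were 1.43, -2.55 and -1.89, with the directions unchanged. By CPM per kilobase Ednrb was the first of the 10 members in both skin libraries, and the third in cultured Cont BECs but the sixth in OE-BECs. Genes of melanocytes (6 genes, 47.7 and 71.2 CPM in sum) and of Schwann and neural crest cells (6 genes, 37.0 and 49.3 CPM), which also use Ednrb, were higher in sum in the library labelled cKO. The former sum rested on Mitf (39.4 and 65.9 CPM), which mast cells and macrophages also use, and without it the other 5 genes had 8.35 and 5.32 CPM, with Dct at 46 and 23 reads. Of the Schwann and neural crest genes 6 of 6 had a ratio above 0. Their part in the ratio of Ednrb was not tested.

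Ednra, the contractile receptor, had reads only in skin beyond the floor. It lies on chromosome 8 from 77663031 to 77724464. The skin libraries had 37.5 CPM in the control and 31.5 CPM in the other (log2 ratio -0.31, interval -0.53 to -0.08, and 0.37 when scaled to the blood endothelial genes). Its reads in culture were 0 in Cont BECs, Cont LECs and OE-LECs and 3 in OE-BECs. The rule called it higher in OE-BECs on those 3 reads, with an interval that reaches down to -0.89, so a difference was not detectable at this depth. Genes of mural cells, the pericytes and smooth muscle in which Ednra is known to act, were at 976 and 807 CPM in sum in skin (8 of 10 with a ratio below 0, and 1 of 10 on the blood endothelial scale) and at most 6.32 CPM in any cultured library. Fibroblast genes showed the same contrast, with 2537 and 1870 CPM in skin (7 of 8 with a ratio below 0, and 1 of 8 on that scale) and at most 20.4 CPM in culture. In Cont BECs of skin Ednrb had 11.7 times the reads of Ednra per kilobase, and in the library labelled cKO 24.4 times.

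Calcrl, the receptor for adrenomedullin, is on chromosome 2 from 84330626 to 84425411. It had 214 and 196 CPM in the skin libraries (log2 ratio -0.18, interval -0.27 to -0.09, and 0.49 when scaled to the blood endothelial genes). Cultured Cont BECs held the most of all 6 libraries, 1039 CPM, and OE-BECs had 355 CPM, 2.85-fold lower in normalized counts and just under the rule (log2 ratio -1.51, interval -1.56 to -1.47). Cont LECs and OE-LECs had 484.6 and 484.8 CPM (log2 ratio 0.02, interval -0.02 to 0.05). The ratio in OE-BECs was 1.53 lower on the log2 scale than that in OE-LECs (interval of the difference -1.57 to -1.49). Thus the peptide and its receptor had opposite directions in OE-BECs, with Adm higher and Calcrl lower, and these directions held when scaled to the blood endothelial genes (1.86 and -0.97).

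The RAMP partners that make Calcrl an adrenomedullin receptor were measured too. Ramp2 had 83.8 CPM in Cont BECs of skin and 39.5 CPM in the library labelled cKO, 2.20-fold lower by normalized counts (log2 ratio -1.14, with an interval of -1.31 to -0.97). Scaled to the blood endothelial genes, the log2 ratio of Ramp2 in skin was -0.47. In the cultured libraries it had between 214 and 314 CPM, with log2 ratios of -0.39 in OE-BECs (0.14 on the blood endothelial scale) and -0.19 in OE-LECs. Ramp3 had 2 and 16 reads in skin (interval on the log2 ratio 0.53 to 5.79). In culture it had 72.8 CPM in control and 50.7 CPM in OE-BECs, and 94.3 CPM in control and 116.5 CPM in OE-LECs. Ramp1, which makes Calcrl a receptor for calcitonin gene-related peptide, had 32 and 58 reads in skin and at most 1 read in any cultured library. Gpr182, an atypical receptor of lymphatic and sinusoidal endothelium once assigned to adrenomedullin, was called lower in both OE libraries, from 71 to 10 reads in BECs (5.45-fold) and from 175 to 52 reads in LECs (3.95-fold).

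Nos3, the endothelial nitric oxide synthase on chromosome 5 from 24364810 to 24384474, was low in skin and high in culture. It had 84.5 CPM in Cont BECs of skin and 45.5 CPM in the library labelled cKO, 1.93-fold lower in normalized counts (749 and 504 reads, log2 ratio -0.95, interval -1.12 to -0.78). The blood endothelial genes were lower in the same library, and scaled to them the log2 ratio of Nos3 was -0.27. All 4 cultured libraries held much more, with 1635 and 1648 CPM in Cont BECs and OE-BECs and 1789 and 1956 CPM in Cont LECs and OE-LECs. In cultured Cont BECs the CPM of Nos3 was 19.3 times that of skin, and per kilobase Nos3 was the first of the 10 members in every cultured library. Its log2 ratios of 0.05 (OE-BECs) and 0.15 (OE-LECs) had narrow intervals on its many reads (0.03 to 0.08, and 0.13 to 0.16) and became 0.59 and 0.24 when scaled to the blood endothelial genes. Atg9b overlaps exons of Nos3 on the opposite strand and had 50 and 57 reads in skin and between 773 and 7225 in culture, so reads of the shared part may be assigned to either gene.

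Among regulators of nitric oxide, Klf2, Klf4 and Thbd, which flowing blood induces together with Nos3, were all lower in the library labelled cKO (343 and 195 CPM in sum). On the blood endothelial scale their log2 ratios there were 0.01, -0.39 and -0.01. In OE-BECs the same 3 genes had ratios below 0 (859 and 674 CPM), all above 0 on the blood endothelial scale. In OE-LECs they had ratios above 0 (848 and 1139 CPM) on either scale. The log2 ratios of Nos3 in OE-BECs and OE-LECs were 0.05 and 0.15, and 0.59 and 0.24 on the blood endothelial scale. Cav1, the caveolar protein that holds Nos3 inactive, had 2381 and 1213 CPM in the skin libraries (2.04-fold lower in normalized counts) and 129 and 271 CPM in Cont BECs and OE-BECs (2.16-fold higher). Its log2 ratios of -1.03 and 1.11 became -0.35 and 1.65 on the blood endothelial scale. Nostrin, a trafficking adaptor of Nos3, had 178 CPM in cultured Cont BECs and 68.4 CPM in OE-BECs (2.53-fold lower). Its log2 ratio of -1.34 became -0.81 on the blood endothelial scale. The nitric oxide receptor is a guanylate cyclase of the subunits Gucy1a3 and Gucy1b3. Both had 0 reads in all 4 cultured libraries, and in skin they were 1.86-fold and 2.20-fold lower in the library labelled cKO. Their log2 ratios of -0.90 and -1.14 became -0.22 and -0.46 on the blood endothelial scale.

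Ptgs2, the inducible cyclooxygenase on chromosome 1 from 150100031 to 150108227, was called lower in the library labelled cKO. It had 418 reads in Cont BECs (47.2 CPM) and 141 there (12.7 CPM), 3.85-fold lower in normalized counts (log2 ratio -1.95, interval -2.23 to -1.67). Scaled to the blood endothelial genes, its log2 ratio was -1.27, which is under the 3-fold of the rule, and the members called in this pair were then 2 higher and 0 lower. All 12 immediate early genes, which are induced with Ptgs2 by many stimuli, were also lower in this library (3375 and 2142 CPM in sum), but on the blood endothelial scale 4 of 12 were. Their part in the ratio of Ptgs2 was not tested. In both cultured pairs Ptgs2 was higher in the OE library. It had 72.8 and 107 CPM in Cont BECs and OE-BECs (1.52-fold, log2 ratio 0.60, interval 0.49 to 0.71) and 130 and 303 CPM in Cont LECs and OE-LECs (2.36-fold, log2 ratio 1.24, interval 1.18 to 1.29). Neither reached the 3-fold of the rule. The immediate early genes did not all move with it there, with 4 of 12 above 0 in OE-BECs (9 on the blood endothelial scale) and 7 of 12 in OE-LECs.

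Ptgs1, the constitutive cyclooxygenase on chromosome 2 from 36230426 to 36252272, had 25.3 CPM in Cont BECs of skin and 29.9 CPM in the library labelled cKO, with an interval on the log2 ratio that includes 0 (0.19, -0.06 to 0.44). It was 2.38-fold lower in OE-BECs (17.8 and 7.25 CPM, log2 ratio -1.25, interval -1.59 to -0.93) and 1.77-fold higher in OE-LECs (8.12 and 14.2 CPM, log2 ratio 0.82, interval 0.58 to 1.07). Scaled to the blood endothelial genes, the log2 ratios of Ptgs1 became 0.86 in skin, -0.72 in OE-BECs and 0.92 in OE-LECs. The balance of both cyclooxygenases therefore differed between libraries. Per kilobase, Ptgs2 had 1.58 times the reads of Ptgs1 in Cont BECs of skin and 0.361 times in the library labelled cKO. In culture the same quotient was 3.48 in control and 12.6 in OE-BECs, and 13.6 in control and 18.1 in OE-LECs.

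Ptgis, which completes the synthesis of prostacyclin, was low in every library. On chromosome 2 from 167191805 to 167240604, it had 10 and 11 reads in the skin libraries, 4 and 2 in Cont BECs and OE-BECs, and 22 and 32 in Cont LECs and OE-LECs. No difference was detectable at this depth, since the intervals on the log2 ratio ran from -1.62 to 1.15 in skin, from -4.08 to 2.19 in cultured BECs and from -0.52 to 1.16 in LECs. The prostacyclin receptor Ptgir had 74.8 and 161 normalized counts in Cont LECs and OE-LECs (2.15-fold higher, log2 ratio 1.10, interval 0.69 to 1.53). In the other pairs its interval included 0.

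**Figure D3:**
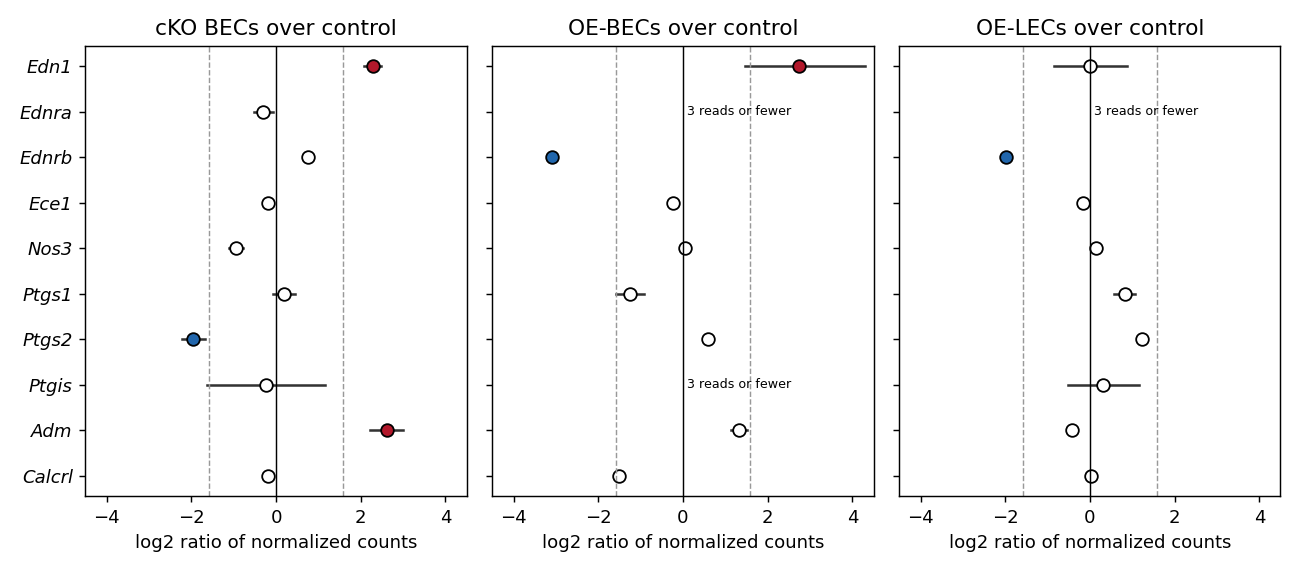
Log2 ratio of normalized counts (changed library over control) of the 10 genes with exact 95% counting intervals, where red and blue points were called higher and lower and dashed lines mark 3-fold. Ednrb lay at -3.09 in OE-BECs and -1.99 in OE-LECs but at 0.76 in the library labelled cKO, and Ptgs2 lay at 0.60, 1.24 and -1.95.

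Another 56 genes of these pathways were listed and counted. In the library labelled cKO 48 of them reached the minimum, of which 1 was called higher (Ramp3) and 3 lower (Arg2, Ptgfr and Hpgd), and 30 had a ratio below 0 (19 on the blood endothelial scale). Over all genes 5.17% were called higher and 2.41% lower. The median log2 ratio of the list was -0.24, beside 0.00 over all genes that reached the minimum. Hpgd, which degrades prostaglandins, was 3.54-fold lower (521 and 191 reads, log2 ratio -1.83, interval -2.07 to -1.58). The apelin receptor Aplnr, 498 and 179 CPM, was 2.88-fold lower, and Ace, the angiotensin-converting enzyme, was 2.11-fold lower. Their log2 ratios of -1.53 and -1.08 became -0.85 and -0.4 on the blood endothelial scale, and that of Hpgd became -1.15. On the other side Pla2g4a, which frees arachidonic acid for the cyclooxygenases, was 2.48-fold higher (166 and 535 reads). Hpgds, a prostaglandin synthase of mast cells and macrophages, had 122 and 223 CPM. Scaled to the blood endothelial genes, the calls were Pla2g4a, Ramp3 and Npr3 higher and none lower.

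In OE-BECs 35 of the 56 genes reached the minimum. Of these 5 were called higher (8.02% over all genes) and 4 lower (5.27%), and their median log2 ratio was -0.02, beside 0.01 over all genes. Of the 9, Ddah1, Apln, Ptger4 and Gpr182 had more than 5 reads, while Pde5a, Tbxa2r and Ptger2 were called on 0 and 3 reads and Tbxas1 and Nppc on 5 and 0. On the blood endothelial scale 7 were called higher and 3 lower, with Cav1 and Bdkrb1 added and Ptger4 lost. Apln, the peptide that Aplnr binds, had 254 CPM in Cont BECs and 875 CPM in OE-BECs (3.54-fold higher, log2 ratio 1.82, interval 1.77 to 1.87). Ddah1, which removes an inhibitor of nitric oxide synthases, was 3.40-fold higher (109 and 284 reads). Ptger4, a receptor for prostaglandin E2, was 4.24-fold lower (232 and 42 reads, log2 ratio -2.08, and -1.55 on the blood endothelial scale), and Npr1, the receptor for atrial natriuretic peptide, was 2.20-fold lower (231 and 102 CPM).

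In OE-LECs 31 of the 56 genes reached the minimum, with 1 called higher (Slco2a1, 0 and 4 reads, beside 2.77% over all genes) and 1 lower (Gpr182, beside 2.09%), and a median log2 ratio of 0.08 beside 0.00. Npr1 was 1.68-fold lower (203 and 119.7 CPM), Npr3, which clears natriuretic peptides, was 2.17-fold higher (57 and 145 reads), and Apln had 1629 and 1275 CPM (log2 ratio -0.33, interval -0.35 to -0.31). Ptger4 and Nostrin were 1.47-fold and 1.43-fold lower.

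**Figure D4:**
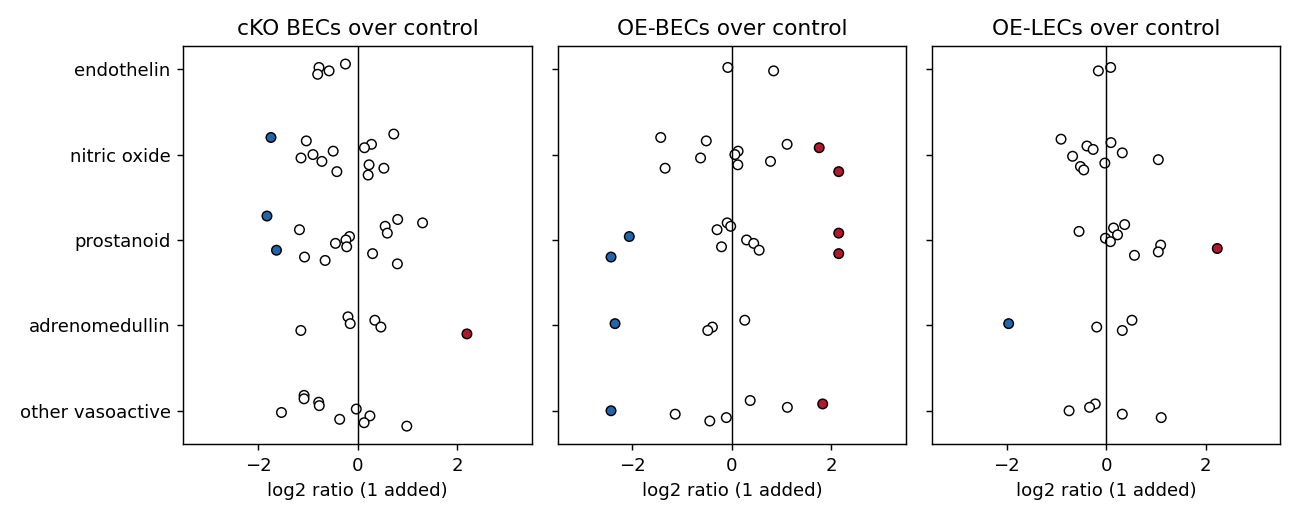
Each point is 1 of the 56 other pathway genes that reached the minimum, by group, at its log2 ratio with 1 added to both normalized counts, where red and blue points were called higher and lower. In the library labelled cKO 30 of 48 points lie below 0, and in OE-LECs 2 of 31 points were called.

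The levels in the controls alone also differed between lines and tissue. Cultured Cont BECs had 759 CPM of Ednrb where Cont LECs had 199.7, and 2.14 times the CPM of Calcrl, while Adm was 4.66 times and Ptgs2 1.79 times as high in Cont LECs. In skin the CPM of Edn1 was 74.5 times that of cultured Cont BECs, a quotient that rests on 6 reads in the latter. Skin cells were sorted fresh and the lines were grown and transduced, so tissue, culture and virus cannot be told apart in these quotients.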

How the data were processed

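The authors trimmed adapters with skewer, aligned reads to mm10 with STAR, counted them per gene with VERSE and deposited raw counts for the 6 libraries, 1 table column each. The members and lists were chosen with earlier results of these data known. From the deposited counts, CPM and normalized counts (median of ratios within each pair) were computed with numpy 2.4.6, pandas 2.3.3 and scipy 1.17.1 (Python 3.11.15). With 1 library per condition no model of replicates can be fitted, so genes were called by the fold rule of the study's methods. The 95% intervals are exact (Clopper-Pearson) on the reads of both libraries. Those on a difference of 2 log2 ratios are normal, with 0.5 added to each count. All cover counting error only, since each condition had 1 library. Without molecular identifiers PCR copies of a molecule are counted again, so the intervals may be too narrow even for that error. No fold was given where a library was at or under 3 reads, the floor. Positions and exon lengths came from GENCODE M21 (all 10 members), promoter windows from RefSeq (8 members). The strand setting of the counting was not settled here.

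All 10 members were named. Other pathway genes named were the 6 with the largest ratio per comparison among those with at least 100 normalized counts, partners of a member (RAMPs, Ptgir, Edn2, Edn3), and genes called or described after their values were seen (Hpgds, Ece2, Gucy1a3, Arg2, Ptgfr, Slco2a1, Pde5a, Tbxa2r, Ptger2, Tbxas1, Nppc, Bdkrb1, Gpr182 in OE-BECs, Cav1 and Npr3 in skin, Apln in OE-LECs, and those flagged for opposite directions). Alternatives were size factors over all 6 libraries, TMM factors of edgeR 4.0.16 in R 4.3.3, total counts, a minimum of 20 or none, a fold of 2 and a pseudocount of 1. Scaling to 12 blood endothelial genes was chosen after seeing the data. The code for the calls and intervals was tried on counts simulated with counting error only. These hold no variation between libraries of 1 condition, so that check does not bear on the missing replicates.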

Additional observations from a re-analysis of the deposited data

Results flagged for a closer look

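Members and pathway genes whose intervals lay on opposite sides of 0 in OE-BECs and OE-LECs are given here. No test over replicates was possible for any of them. Ptgs1 was lower in OE-BECs and higher in OE-LECs, and its log2 ratio in OE-BECs minus that in OE-LECs was -2.08 (interval -2.35 to -1.80). Adm was higher in OE-BECs and lower in OE-LECs, with a difference of 1.74 (interval 1.60 to 1.88). Scaled to the blood endothelial genes, both kept opposite directions in the lines (Ptgs1 -0.72 and 0.92, Adm 1.86 and -0.32).

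Of the other pathway genes, Apln was higher in OE-BECs and lower in OE-LECs (difference 2.16), as were Ddah1 (2.15) and Ace (0.59). Ramp3 was lower in OE-BECs and higher in OE-LECs (difference -0.81), but on the blood endothelial scale both ratios were above 0 (0.05 and 0.42). Apln, Ddah1 and Ace kept opposite directions on that scale. The intervals were counting intervals on 4 libraries. The lines differ in source and level as well as in the vessel type that their labels give, and these cannot be told apart here. Prox1 had 0 reads in both lines, so the vessel type is that of the labels only.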

How the results depend on the processing

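No paired analysis was possible because each group had 1 library. With size factors over all 6 libraries, TMM factors, total counts, a minimum of 20, no minimum or a pseudocount of 1, the number of members called stayed within 1.5 times in all 3 comparisons. With a fold of more than 2 the members called were 6 in OE-BECs (Adm, Ptgs1 and Calcrl added) and 2 in OE-LECs (Ptgs2 added), and the other pathway genes called were 13 in the library labelled cKO, 14 in OE-BECs and 7 in OE-LECs. The pathway calls moved with the minimum because many rest on few reads: a minimum of 20 left 4 in OE-BECs and 1 in OE-LECs, and no minimum gave 16 and 8. Size factors over all 6 libraries left 1 in OE-LECs. Scaling to the 12 blood endothelial genes raised all log2 ratios by 0.68 in the library labelled cKO, 0.54 in OE-BECs and 0.10 in OE-LECs. Those genes were themselves lower in sum in OE-BECs (8524 and 5723 CPM) and OE-LECs (7299 and 6739 CPM), as in skin. In the library labelled cKO this scaling ended the call of Ptgs2. In OE-BECs it added that of Adm (4 members called), ended that of Ptger4 and added those of Cav1 and Bdkrb1. The 135 recomputed member ratios pool all scalings and the pseudocount, and their 5 changes of sign all came from this scaling. They were those of Ednra, Ece1, Ptgis and Calcrl in skin and Ece1 in OE-BECs. None of these 5 had been called, and in skin the members above 0 went from 4 of 10 to 8. Depth limits Ptgis in all libraries and Edn1 and Ednra in culture.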

Other observations

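The genes most alike to each member over the 6 libraries, by the distance between centred log2(CPM + 1) profiles among 9707 genes with a mean of at least 10 CPM, are given as a description. Each profile has 6 points, and the contrast of skin and culture dominates most of them. Ednra was nearest to Lum and Cspg4 (both at a distance of 0.13), a matrix gene of fibroblasts and a pericyte marker, and then to Ccr1 (0.22). Ednrb was nearest to Gpihbp1, Acer2 (1.21) and Tgfb3 (1.23). Gpihbp1, which anchors lipoprotein lipase on capillary endothelium, had 44.3 and 9.76 CPM in cultured Cont BECs and OE-BECs and 22.4 and 3.96 CPM in Cont LECs and OE-LECs. Adm was nearest to Ctgf (0.89), which had 31.1 and 122 CPM in the skin libraries, and Ptgs2 to Crip2 (0.91) and Sele (1.03). Edn1 was nearest to Slc11a1 (0.84), Dnah8 (0.85) and Krt4 (0.92), of which Slc11a1 is a macrophage gene and Krt4 an epithelial keratin. Nos3 was nearest to Sema3a (0.56), Calcrl to Armc9 (0.33), Ptgs1 to Lfng (0.42) and Ece1 to 2310067B10Rik (0.16).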
